A study of Mus musculus with 8 samples.

Results

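The extracellular matrix genes described here are 37 genes for collagens, laminins, other matrix proteins, the enzymes that crosslink or cut them, and surface, contractile and transcription factor genes that mark fibroblasts. They were listed by name, with earlier results of these data known. Where several probe sets were annotated to a gene alone, the one brightest on average across the 8 arrays was read. By this rule 35 of the 37 genes were measured, out of 17098 genes in all. Fbn1, which encodes fibrillin-1, had no such probe set, and Tagln, which encodes the actin-binding protein transgelin, was read only by a probe set it shares with Pcsk7. A gene was called detected where its mean log2 expression value over the 8 arrays was at least 3.5, and silent otherwise. Background probes with 24 G or C in 25 bases averaged 3.10. By that limit 22 of the 35 were detected and 13 were silent, a share detected of 62.9% beside 60.0% of all genes. Just inside the limit lay Col3a1 at 3.52 and Col6a2 at 3.69, and just outside it Col1a1 at 3.42.

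The cells were mouse embryonic stem (ES) cells of strain C57BL/6, labelled HPRT deficient in both groups, at passages 19 to 22. One group of 4 arrays received 2.5 µM cisplatin, a platinum drug that crosslinks DNA, and the other group of 4 the solvent dimethyl sulfoxide (DMSO), both for 8 h, with the replicate numbers 3 to 6 in each. Earlier, the cells had been passaged 2 times on feeder-coated plates and then 1 time on gelatin, so carry-over of feeder cells was possible by design. The labels do not say whether replicates were separate cultures, and the spread that the tests measure may therefore be technical.

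The matrix is the protein scaffold that cells secrete. Fibrillar collagens form load-bearing fibres, collagen IV and laminins form the sheet-like basement membrane under epithelia, fibronectin links cells to fibres, and lysyl oxidases crosslink collagen and elastin. ES cells and the early embryo make basement membrane components, whereas interstitial collagens, periostin, decorin and lumican are typical products of fibroblasts, the cells commonly used as feeders.

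The ES cell label was borne out by its markers. All 10 measured of the 11 listed ES cell markers were detected, and their mean ran from 10.85 to 10.91 on the cisplatin arrays and from 11.05 to 11.08 on the control arrays. Of these, 5 (50%) were lower with cisplatin and none higher in limma's test at an adjusted p under 0.05. Of all genes tested 7.69% were lower and 11.6% higher, and of all detected genes 12.1% and 17.6%. Esrrb, a pluripotency transcription factor, was at -0.55 ± 0.07 (log2 fold change of cisplatin over control ± SE, 4 arrays against 4, adjusted p = 0.000498), Klf4 at -0.40 ± 0.07, Zfp42 at -0.34 ± 0.06, Utf1 at -0.22 ± 0.05 and Nanog at -0.25 ± 0.06. Below, levels are means ± SD over 4 arrays, cisplatin against control. Pou5f1 was at 12.19 ± 0.06 against 12.23 ± 0.06 and Sox2 at 11.24 ± 0.03 against 11.35 ± 0.04, and neither passed (adjusted p = 0.674 and 0.134, limma). Hprt, listed as an indicator of feeder cells because the ES cells are labelled deficient, was at 4.84 ± 0.16 against 4.60 ± 0.37, and Xist, the RNA of X inactivation, at 5.13 ± 0.18 against 5.47 ± 0.23 (adjusted p = 0.373 and 0.0875). The labels do not say which part of Hprt is lost, so its level does not check the label.

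The markers picked to define fibroblasts were mostly silent. Other matrix genes, among them Acta2, Timp1, Col5a1, Mmp2 and Lox, were detected, as were 9 of 28 further fibroblast markers measured. Of 13 defining fibroblast markers, all measured, 3 were detected (Col3a1, Thy1 and Twist1), and 9 had a mean below the background probes, namely Col1a2, Postn, Lum, Dcn, Twist2, Prrx1, Fap, Pdgfrb and Pdgfra. The mean over the 13 markers ran from 2.99 to 3.23 on the cisplatin arrays and from 3.05 to 3.12 on the control arrays, so the groups overlapped near the background. The genes are therefore called matrix genes here, with no cell type attached. In RNA from whole cultures, fewer cells of a type and less RNA per cell cannot be told apart.

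For some of the matrix genes the arrays numbered 3 read lowest, and those numbered 4 highest, in both groups. Results that turn on the arrays numbered 3 are given with and without them.

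With cisplatin, 4 of the 35 measured matrix genes were higher and 4 lower at an adjusted p under 0.05 (limma, Benjamini-Hochberg over 17098 genes), and 27 did not pass. Over all genes tested 11.6% were higher and 7.69% lower. Among the 22 detected matrix genes 3 were higher and 4 lower, where 17.6% and 12.1% of all detected genes were, so the shares lay near the background. The median change of the detected matrix genes was 0.04, beside 0.03 for all 10261 detected genes. The groups did not overlap for 9 of the 35 genes, and for 24.3% of all genes. The higher genes were Mmp2, Thy1, Sparc and the silent Fbln2, and the lower ones Lama1, Lamc1, Fn1 and Tgfbi.

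**Figure D1:**
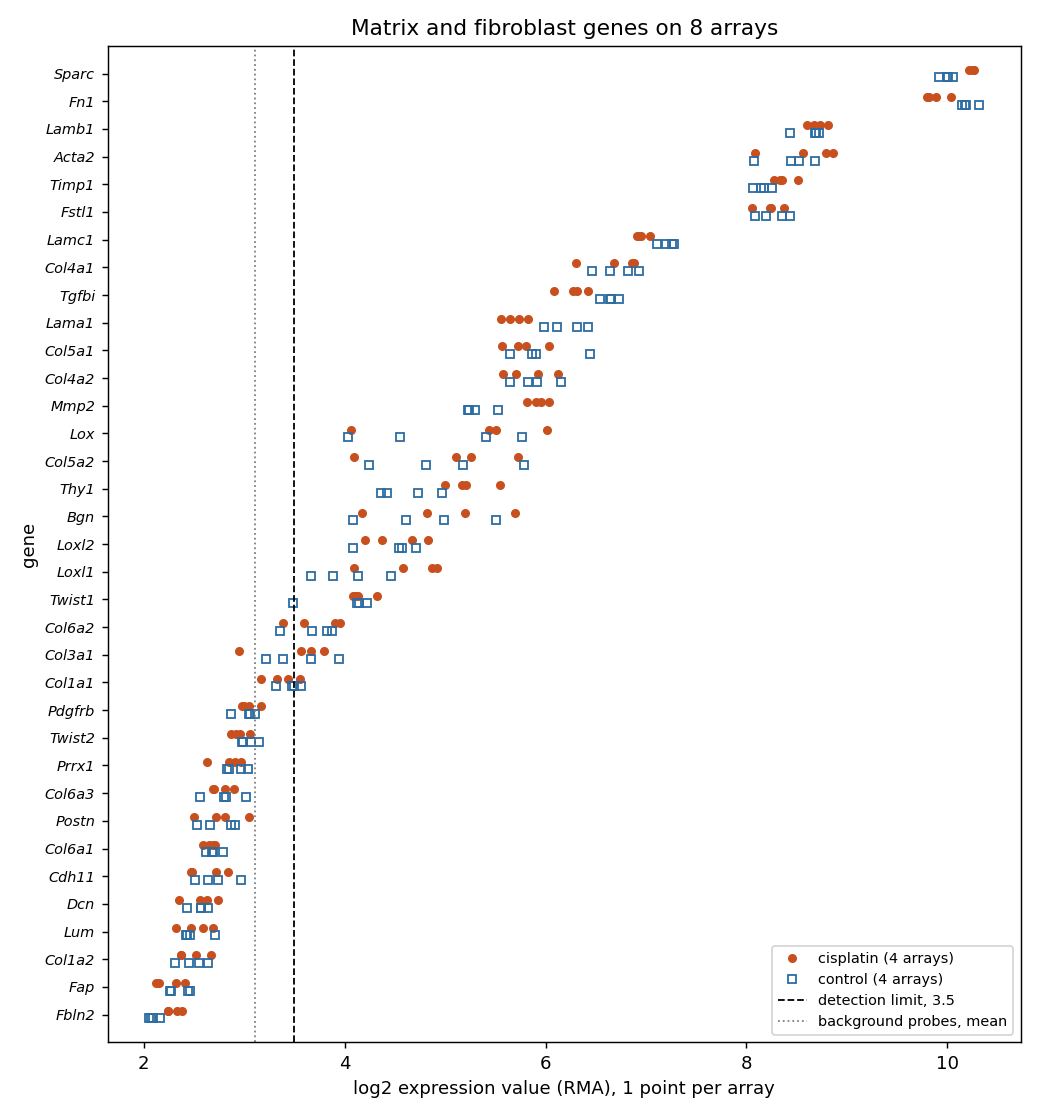
Log2 expression of the 35 measured matrix and fibroblast genes, 1 point per array, ordered by mean; filled circles are the 4 cisplatin arrays and open squares the 4 control arrays. The 13 silent genes have means left of the dashed limit of 3.5, near or below the dotted line of the background probes at 3.10, and Lox, Col5a2 and Bgn spread widely within both groups.

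**Figure D2:**
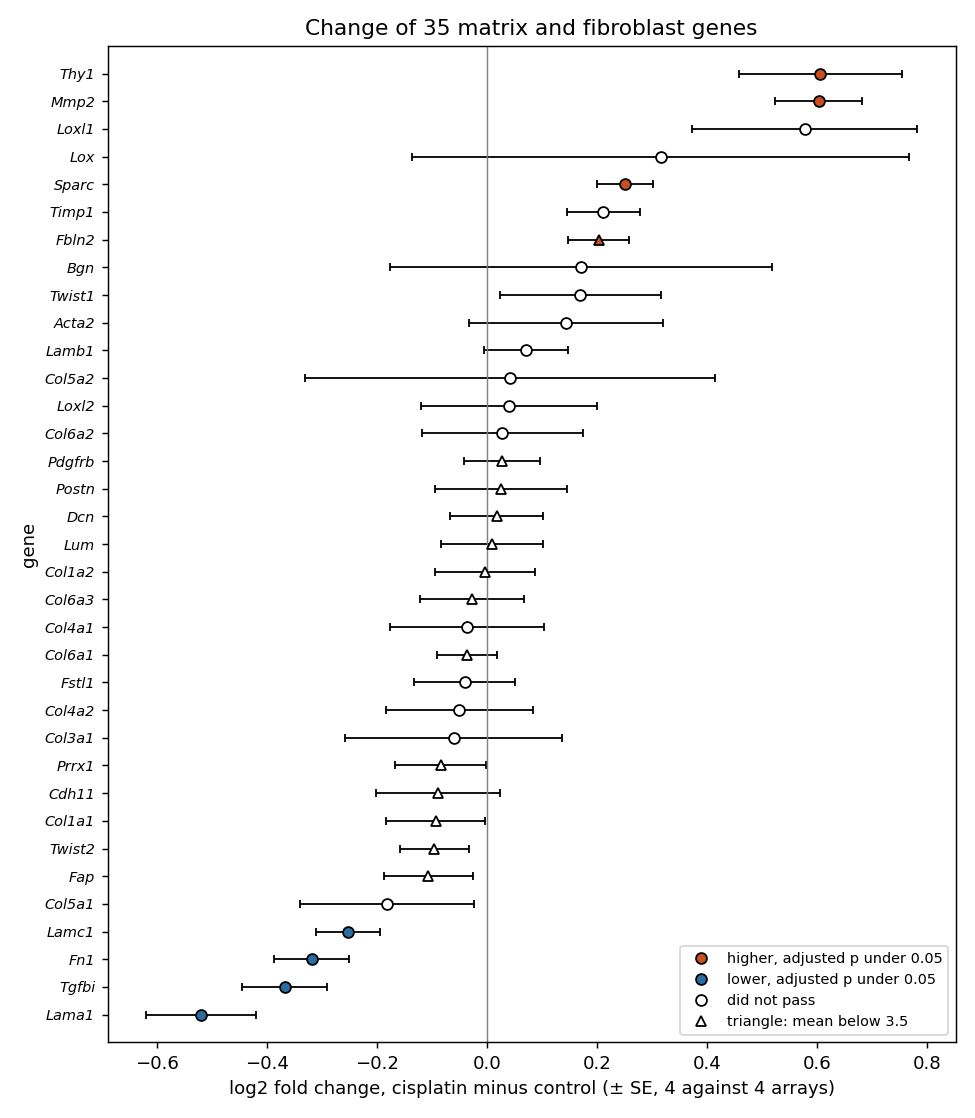
Log2 fold change (cisplatin minus control, ± SE, 4 against 4 arrays) of the same 35 genes. Orange symbols passed the test as higher (4 genes) and blue ones as lower (4 genes); Thy1 and Mmp2 lie at 0.61 and 0.60, Lama1 lies at -0.52, and triangles mark silent genes.

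The 5 basement membrane genes were all detected, and 2 of them were lower, where 7.69% of all genes and 12.1% of all detected genes were. With so few genes this count is a description only. Lama1, Lamb1 and Lamc1 encode the alpha1, beta1 and gamma1 chains that together make the laminin of the early embryo. Lama1 read 5.82, 5.64, 5.74 and 5.55 on cisplatin arrays 3, 4, 5 and 6 and 6.42, 5.98, 6.31 and 6.11 on the control arrays in the same order, which is kept below. Every cisplatin array lay below every control array, a change of -0.52 ± 0.10 or 1.43-fold lower (adjusted p = 0.00514, limma). Lamc1 read 6.91, 7.04, 6.93 and 6.95 with cisplatin and 7.19, 7.11, 7.26 and 7.28 in control, again without overlap, at -0.25 ± 0.06 (adjusted p = 0.0132). Another probe set of Lamc1 gave -0.66 ± 0.12 (adjusted p = 0.00319 over 28898 probe sets, an analysis added once values were known). Lamb1 did not pass, at 8.71 ± 0.09 against 8.63 ± 0.13 (adjusted p = 0.600), and its other 2 detected probe sets gave 0.02 ± 0.11 and 0.07 ± 0.14. Whether the laminin chains changed differently was not tested.

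Collagen IV, the network-forming collagen of the basement membrane, contains chains encoded by Col4a1 and Col4a2, which lie head to head on chromosome 8. Their RefSeq promoter windows (GRCm38.p6), 250 bases before to 50 after each annotated start, are shown because they overlap. Capitals mark the 78 bases that both windows cover, read from opposite strands. Col4a1 is at chr8:11312777-11313076, minus strand, and Col4a2 at chr8:11312555-11312854, plus strand.
Col4a1: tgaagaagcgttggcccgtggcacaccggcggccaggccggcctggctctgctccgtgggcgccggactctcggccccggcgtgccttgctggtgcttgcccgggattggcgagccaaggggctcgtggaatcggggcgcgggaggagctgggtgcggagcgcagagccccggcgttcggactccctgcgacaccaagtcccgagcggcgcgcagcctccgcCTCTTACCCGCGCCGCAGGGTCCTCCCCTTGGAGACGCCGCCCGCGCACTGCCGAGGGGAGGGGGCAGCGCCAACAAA
Col4a2: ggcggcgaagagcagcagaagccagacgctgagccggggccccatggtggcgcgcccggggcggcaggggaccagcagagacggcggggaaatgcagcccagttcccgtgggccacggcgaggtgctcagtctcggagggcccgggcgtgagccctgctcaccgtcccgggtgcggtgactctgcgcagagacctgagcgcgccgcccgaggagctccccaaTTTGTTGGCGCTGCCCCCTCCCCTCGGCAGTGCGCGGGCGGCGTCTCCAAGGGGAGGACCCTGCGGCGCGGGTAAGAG
G and C made up 74.0% and 73.7% of the windows, against a median of 52.7% over all promoter windows. Each held 1 CCAAT box (CCAAT, either strand), found in 37.4% of the 32851 windows. GC boxes (GGGCGG, either strand), found in 35.7%, numbered 1 and 3. The 1 in Col4a1 lies in the shared bases and is also counted in Col4a2.

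Neither collagen IV gene passed the test. Col4a1 read 6.30, 6.89, 6.86 and 6.68 with cisplatin and 6.46, 6.82, 6.93 and 6.65 in control (-0.04 ± 0.14, adjusted p = 0.904, limma). Col4a2 read 5.71, 5.92, 6.13 and 5.58 against 5.64, 5.91, 6.16 and 5.82 (-0.05 ± 0.13, adjusted p = 0.854). The groups overlapped for both genes, array 3 was lowest for Col4a1 in both groups, and array 5 was highest for Col4a2 in both.

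Of 27 other basement membrane genes 23 were measured, 2 were higher and 2 lower. That is 8.70% each, beside 11.6% higher and 7.69% lower over all genes. Npnt, which encodes the integrin ligand nephronectin, rose by 1.13 ± 0.14 (adjusted p = 0.000531, limma), and Lamb2, the beta2 laminin chain, by 0.51 ± 0.14 (adjusted p = 0.0321). Smoc1, a secreted calcium-binding protein of basement membranes, was at -0.51 ± 0.09 (adjusted p = 0.00337), and the silent Col4a6 at -0.30 ± 0.08 (adjusted p = 0.0321). Extraembryonic endoderm is a lineage that deposits much basement membrane. Of its 13 markers 3 were detected (Dab2, Amn and Cubn), and 1 was higher (7.69%, beside 11.6% of all genes), Amn at 0.42 ± 0.11. Their mean ran from 3.08 to 3.28 on the cisplatin arrays and from 3.01 to 3.25 on the control arrays, with array 3 lowest in both groups, and their part in the basement membrane results was not tested.

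Among the matrix glycoproteins, Fn1 encodes fibronectin, which binds integrins and collagen. It read 9.82, 10.04, 9.89 and 9.80 with cisplatin and 10.18, 10.32, 10.18 and 10.14 in control. All cisplatin values lay below all control values, at -0.32 ± 0.07 or 1.25-fold lower (adjusted p = 0.00892, limma). Without both arrays numbered 3, Fn1 (-0.30, adjusted p = 0.0532) and Lamc1 (-0.24, adjusted p = 0.0740) no longer passed, which left 2 lower genes, Lama1 and Tgfbi.

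Tgfbi, a secreted collagen-binding protein named for its induction by TGF-beta, and Sparc, a collagen-binding glycoprotein of basement membranes, went in opposite directions. Tgfbi read 6.08, 6.42, 6.31 and 6.28 with cisplatin and 6.64, 6.54, 6.65 and 6.73 in control, without overlap, at -0.37 ± 0.08 (adjusted p = 0.00831, limma). Its other detected probe set gave -0.34 ± 0.15 and did not pass (adjusted p = 0.170). Sparc read 10.26, 10.26, 10.22 and 10.25 with cisplatin and 10.06, 9.999, 9.92 and 10.01 in control. All 4 cisplatin values lay above every control value, at 0.25 ± 0.05 or 1.19-fold higher (adjusted p = 0.00630), and its other detected probe set gave 0.17 ± 0.06 (adjusted p = 0.0670). The call of Sparc ended when each array was centred on its median (0.12, adjusted p = 0.142).

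The promoter windows of Sparc and Tgfbi are shown because these genes changed in opposite directions; the RefSeq table held windows for 21 of the 37 genes. Capitals mark matches to the p53 half-site (by name, either strand) and to the GC box. Sparc is at chr11:55420031-55420330, minus strand, and Tgfbi at chr13:56609336-56609635, plus strand.
Sparc: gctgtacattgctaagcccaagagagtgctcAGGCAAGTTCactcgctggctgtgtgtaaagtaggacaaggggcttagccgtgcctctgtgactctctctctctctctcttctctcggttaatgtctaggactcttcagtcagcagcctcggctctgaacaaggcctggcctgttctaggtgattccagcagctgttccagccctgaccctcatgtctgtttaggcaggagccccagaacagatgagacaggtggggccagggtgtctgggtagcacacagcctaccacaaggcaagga
Tgfbi: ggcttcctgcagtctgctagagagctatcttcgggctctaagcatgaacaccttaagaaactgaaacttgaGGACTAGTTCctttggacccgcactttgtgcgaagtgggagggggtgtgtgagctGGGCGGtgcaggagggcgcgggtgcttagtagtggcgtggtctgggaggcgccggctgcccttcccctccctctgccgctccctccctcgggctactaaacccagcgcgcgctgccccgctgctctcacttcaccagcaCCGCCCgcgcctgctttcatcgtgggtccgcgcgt
Each window held 1 p53 half-site match, which 8.36% of all windows hold, at position -219 from the annotated start in Sparc and -179 in Tgfbi. Tgfbi also held 2 GC boxes. A match describes the letters of the window and is no evidence of binding.

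The other glycoprotein genes moved little. Fstl1, a secreted follistatin-like protein, was at 8.23 ± 0.13 against 8.27 ± 0.16 (adjusted p = 0.824, limma), and its other probe set gave -0.02 ± 0.11. Postn, which encodes periostin, was silent at 2.77 ± 0.22 against 2.74 ± 0.18. Fbln2, which encodes fibulin-2, read 2.24, 2.24, 2.33 and 2.38 with cisplatin and 2.07, 2.05, 2.10 and 2.16 in control. The groups did not overlap and the gene passed (0.20 ± 0.05, adjusted p = 0.0270), though every array lay below its background probes and the call ended after centring (0.07, adjusted p = 0.351) and without both arrays numbered 3 (0.21, adjusted p = 0.0860).

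Mmp2, Timp1 and Fap concern the turnover of the matrix. Mmp2 encodes gelatinase A, which cleaves collagen IV and denatured collagen. It read 5.82, 6.04, 5.90 and 5.95 with cisplatin and 5.29, 5.53, 5.24 and 5.23 in control. The groups lay well apart, at 0.60 ± 0.08 or 1.52-fold higher (adjusted p = 0.000605, limma). Timp1, an inhibitor of metalloproteinases, read 8.27, 8.51, 8.36 and 8.34 against 8.07, 8.25, 8.17 and 8.14. Its groups did not overlap, but it missed the threshold (0.21 ± 0.07, adjusted p = 0.0512), which it passed with the replicate number as a block (adjusted p = 0.0254). Without both arrays numbered 3 it missed the threshold as well (0.21, adjusted p = 0.103). Fap, a protease of activated fibroblasts, was silent at 2.25 ± 0.13 against 2.36 ± 0.11.

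Of 34 other proteases and inhibitors 28 were measured, with 1 higher and 1 lower. That is 3.57% each, beside 11.6% higher and 7.69% lower over all genes. Plaur, the urokinase receptor gene, was at 0.41 ± 0.13 (adjusted p = 0.04996, limma), and Adamts9, a proteoglycan-cutting protease gene, at -0.53 ± 0.14 (adjusted p = 0.0286). Groups overlapped for both.

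Thy1 encodes a surface glycoprotein of fibroblasts, thymocytes and neurons. It read 5.17, 5.54, 5.21 and 5.00 with cisplatin and 4.42, 4.73, 4.37 and 4.97 in control. Control array 6 came close to the lowest cisplatin array, but the groups did not overlap, at 0.61 ± 0.15 or 1.52-fold higher (adjusted p = 0.0176, limma). The call was lost without control replicate 3 (0.54, adjusted p = 0.0519), without both arrays numbered 3 (0.56, adjusted p = 0.0761), after a further quantile normalization (0.49, adjusted p = 0.0524) and with the unmoderated statistic (adjusted p = 0.0773). The other surface proteins were silent: the PDGF receptor gene Pdgfrb was at 3.05 ± 0.09 against 3.02 ± 0.10 and the mesenchymal cadherin gene Cdh11 at 2.63 ± 0.18 against 2.72 ± 0.19.

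No fibrillar collagen gene passed the test. Col1a1 and Col1a2, the chains of collagen I, were silent at 3.37 ± 0.17 against 3.46 ± 0.11 and 2.48 ± 0.14 against 2.49 ± 0.14. Col1a2 was read by the 1 probe set annotated to it alone, which may not represent its main transcript, so its low value, here and among the fibroblast markers, is a statement on that probe set. Col3a1, the chain of collagen III, read 2.95, 3.80, 3.56 and 3.66 with cisplatin and 3.39, 3.66, 3.22 and 3.94 in control, on both sides of the detection limit in each group. Col5a1, a chain of collagen V, which starts the assembly of collagen fibres, was at 5.78 ± 0.19 against 5.97 ± 0.34 (-0.18 ± 0.16, adjusted p = 0.506, limma). Collagen VI forms beaded filaments. Its gene Col6a2 was at 3.71 ± 0.27 against 3.68 ± 0.23, while Col6a1 and Col6a3 lay below the background probes on every array.

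Among the matrix genes, the widest spread within groups was seen in genes that did not pass. That spread enters the SE, so it makes passing harder by itself. Lox, which encodes lysyl oxidase, read 4.07, 6.01, 5.43 and 5.51 with cisplatin and 4.03, 5.77, 5.40 and 4.55 in control. Array 3 was lowest and array 4 highest in both groups, 3.85-fold apart with cisplatin and 3.33-fold in control, and the groups overlapped (0.32 ± 0.45, adjusted p = 0.707, limma). Its SD within groups of 0.81 was the largest of the 10261 detected genes, whose median was 0.10.

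Col5a2, another collagen V chain, read 4.09, 5.73, 5.11 and 5.26 with cisplatin and 4.24, 5.79, 5.18 and 4.81 in control. Bgn, which encodes the small proteoglycan biglycan, read 4.18, 5.70, 5.20 and 4.82 against 4.08, 5.51, 4.99 and 4.61. Both had array 3 lowest and array 4 highest in each group. Their SDs within groups, 0.67 and 0.62, ranked 3 and 4, and neither passed (adjusted p = 0.956 and 0.801, limma). Ranks 2 and 5, named because of their values, were Cd44, the hyaluronan receptor gene, with an SD of 0.70, and Mgp, with 0.60. Mgp encodes a matrix protein of cartilage and vessels and was listed among the further fibroblast markers. Cd44 read 3.76, 5.59, 4.53 and 4.80 with cisplatin and 3.83, 5.28, 4.56 and 4.14 in control. Mgp read 3.18, 4.49, 3.83 and 4.38 against 2.75, 4.23, 3.52 and 3.47. Array 3 was lowest and array 4 highest in each group for these as well.

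Of the matrix genes with this order of arrays, Lox and Bgn had another detected probe set. That of Lox read 4.11, 5.23, 5.04 and 4.90 with cisplatin and 4.14, 5.07, 4.73 and 4.45 in control, and that of Bgn 3.02, 4.47, 3.80 and 3.65 against 2.78, 3.94, 3.69 and 3.13. Array 3 was again lowest and array 4 highest in each group. Silent probe sets of Lox, Col5a1, Col5a2 and Acta2 did not show this order in both groups.

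Acta2 encodes smooth muscle actin, made by smooth muscle and myofibroblasts. It read 8.08, 8.86, 8.56 and 8.79 with cisplatin and 8.08, 8.68, 8.45 and 8.52 in control, with the same lowest and highest arrays (0.14 ± 0.18, adjusted p = 0.652, limma). The probe set shared by Tagln and Pcsk7 read 8.67, 9.07, 8.64 and 8.78 against 8.36, 8.92, 8.51 and 8.24, which cannot be assigned to either gene. Of 18 other smooth muscle contractile genes 16 were measured, 12 were detected, 3 were higher and none lower. That is 18.75% of the measured genes higher, where 11.6% of all genes were. All 3 were among the 12 detected, where 17.6% of all detected genes were higher. Des, which encodes desmin, was at 0.66 ± 0.09 (adjusted p = 0.000895), Tpm2, a tropomyosin gene, at 0.34 ± 0.09 and Cald1, the caldesmon gene, at 0.44 ± 0.12. The mean over 7 measured smooth muscle markers, among them Des, ran from 4.02 to 4.07 with cisplatin and from 3.81 to 3.97 in control. Of the 7 markers 3 were detected (Cnn1, Myl9 and Des), and only Des was called higher. The changes of the others ran from -0.08 (Myh11) to 0.26 (Myl9). The part of these markers in the results was not tested.

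**Figure D3:**
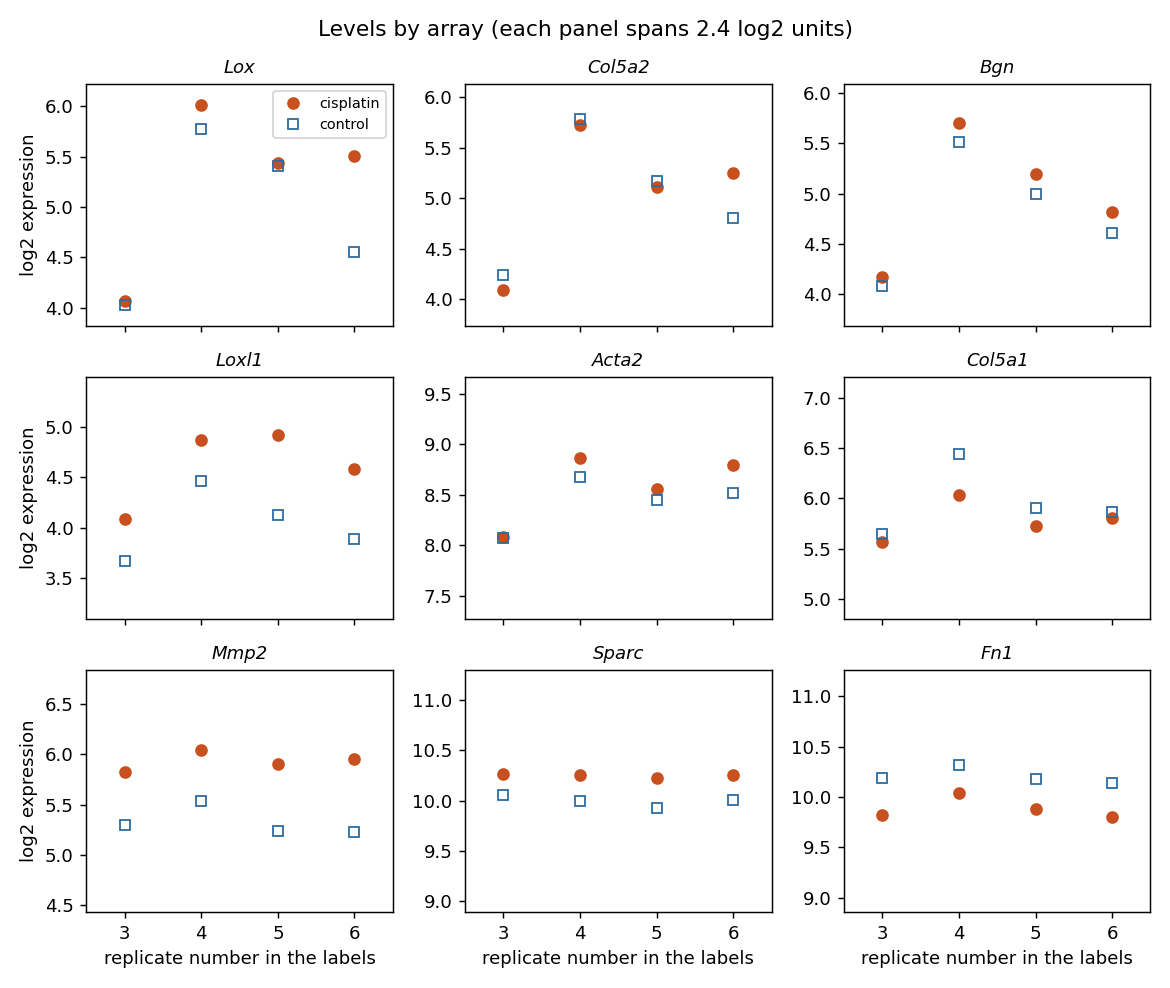
Log2 expression of 9 matrix genes by the replicate number of the array, cisplatin as filled circles and control as open squares; each panel spans the same range of log2 units. Lox, Col5a2, Bgn, Acta2 and Col5a1 are lowest at number 3 and highest at number 4 in both groups. With cisplatin Mmp2, Sparc, Lox, Bgn, Loxl1 and Acta2 are higher, and Fn1 and Col5a1 lower, at every number. Only for Mmp2, Sparc and Fn1 do the groups not overlap.

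Array 3 lowest together with array 4 highest in both groups was found for 6 of the 22 detected matrix genes, Col5a1, Col5a2, Bgn, Lox, Timp1 and Acta2, and for 1.40% of all detected genes. Array 3 was lowest in both groups for 8 of the 22, these and Col4a1 and Loxl1, and for 8.43% of all detected genes. These counts were picked with the values in view and are descriptions. Without both arrays numbered 3, the SD of Lox was 0.50 (rank 8), that of Bgn 0.45 (rank 19), that of Col5a2 0.42 (rank 32) and that of Acta2 0.14 (rank 2992). Sparc, with an SD of 0.04, ranked 9504, so a wide spread was not shared by the whole list. What set these genes' levels on the arrays was not tested.

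**Figure D4:**
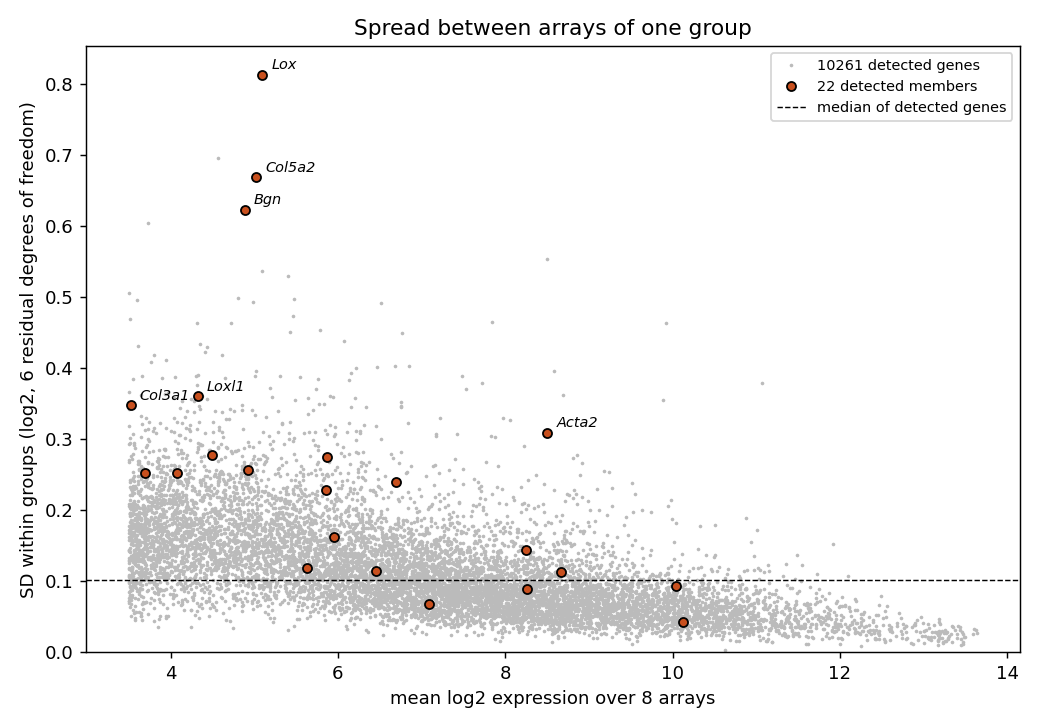
SD within groups (log2, pooled over both groups) against mean log2 expression for the 10261 detected genes in grey and the 22 detected matrix genes in orange; the dashed line is the median, 0.10. Lox, Col5a2 and Bgn stand at 0.81, 0.67 and 0.62, and Sparc near the bottom at 0.04.

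The promoter windows of Acta2 and Bgn are shown because both genes had this order of arrays and entries in the RefSeq table. Capitals mark the TATA box (TATAAA or TATATA, either strand) in Acta2 and GC boxes in Bgn. Acta2 is at chr19:34255324-34255623, minus strand, and Bgn at chrX:73483351-73483650, plus strand.
Acta2: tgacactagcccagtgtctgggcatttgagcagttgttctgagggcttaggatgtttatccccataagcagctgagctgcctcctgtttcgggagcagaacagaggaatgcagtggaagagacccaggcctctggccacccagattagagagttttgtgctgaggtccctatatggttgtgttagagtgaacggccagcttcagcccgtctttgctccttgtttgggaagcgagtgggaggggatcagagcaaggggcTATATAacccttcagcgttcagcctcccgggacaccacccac
Bgn: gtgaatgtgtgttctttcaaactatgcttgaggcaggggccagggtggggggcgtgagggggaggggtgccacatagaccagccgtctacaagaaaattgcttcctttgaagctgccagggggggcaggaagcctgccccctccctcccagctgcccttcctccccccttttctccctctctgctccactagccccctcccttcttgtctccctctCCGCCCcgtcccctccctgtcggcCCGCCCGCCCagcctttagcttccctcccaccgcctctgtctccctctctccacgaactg
A TATA box, found in 17.1% of all windows, began at position 9 from the annotated start in Acta2, and Bgn held 3 GC boxes. An AP-1 site (TGANTCA, either strand), found in 7.81% of windows, matched in neither.

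The other crosslinking enzyme genes were Loxl1 and Loxl2, and neither passed over all arrays with group as the only term. Loxl1, a lysyl oxidase relative that acts on elastin, read 4.09, 4.87, 4.92 and 4.58 with cisplatin and 3.67, 4.46, 4.13 and 3.88 in control. At each number the cisplatin array read higher, but the groups overlapped (0.58 ± 0.20, adjusted p = 0.0785, limma). Lox, Bgn, Acta2 and Timp1 also read higher with cisplatin at each number, and of these only Timp1 passed in any alternative. Loxl1 passed with the replicate number as a block (0.58, adjusted p = 0.00532) and without both arrays numbered 3 (0.63, adjusted p = 0.0291). Its change ran from 0.22 to 0.75 over the alternatives, and its other, silent probe set gave -0.13 ± 0.09 (adjusted p = 0.420). Loxl2 was at 4.52 ± 0.28 against 4.48 ± 0.27 (adjusted p = 0.904).

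Lum and Dcn, neighbouring genes on chromosome 10, encode lumican and decorin, small proteoglycans that bind collagen fibres. They were silent at 2.52 ± 0.16 against 2.51 ± 0.14 and 2.57 ± 0.16 against 2.55 ± 0.09. Among the mesenchymal transcription factors Twist1 was at 4.16 ± 0.11 against 3.99 ± 0.34 (adjusted p = 0.494, limma), while Twist2 and Prrx1 were silent at 2.95 ± 0.08 against 3.04 ± 0.08 and 2.84 ± 0.15 against 2.92 ± 0.10. Of the 13 silent genes, 10 lay below the background probes on every array, and all but Fbln2 had changes between -0.11 and 0.03. In genes this dim a fall would be hard to see.

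In the list of genes that make and modify collagen, more were higher than lower. Of 24 genes of collagen synthesis and processing 21 were measured, 15 were detected, 6 were higher and none lower. That is 28.6% of the measured genes higher, where 11.6% of all genes were. All 6 were among the 15 detected, where 17.6% of all detected genes were higher. The median change was 0.06, beside 0.01 for all genes. The list was chosen with earlier results of these data known, so its shares are descriptions only. P3h3, a prolyl 3-hydroxylase gene, rose by 0.43 ± 0.06 (adjusted p = 0.000895, limma). The lysyl hydroxylase genes Plod2, Plod3 and Plod1 rose by 0.68 ± 0.12, 0.30 ± 0.06 and 0.28 ± 0.06 (adjusted p = 0.00279, 0.00442 and 0.00839). The remaining ones, outside the naming rule, were P3h1 at 0.34 ± 0.07 and P4ha2, a prolyl 4-hydroxylase subunit gene, at 0.60 ± 0.15. Of the same enzyme families P4hb, P3h2 and P4ha3 did not pass, at 0.09 ± 0.08, 0.12 ± 0.06 and -0.07 ± 0.08 (adjusted p = 0.498, 0.228 and 0.630). These and Serpinh1, the collagen chaperone gene, were also chosen outside the rule, and Serpinh1 was at 7.58 ± 0.21 against 7.33 ± 0.21 (adjusted p = 0.199).

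**Figure D5:**
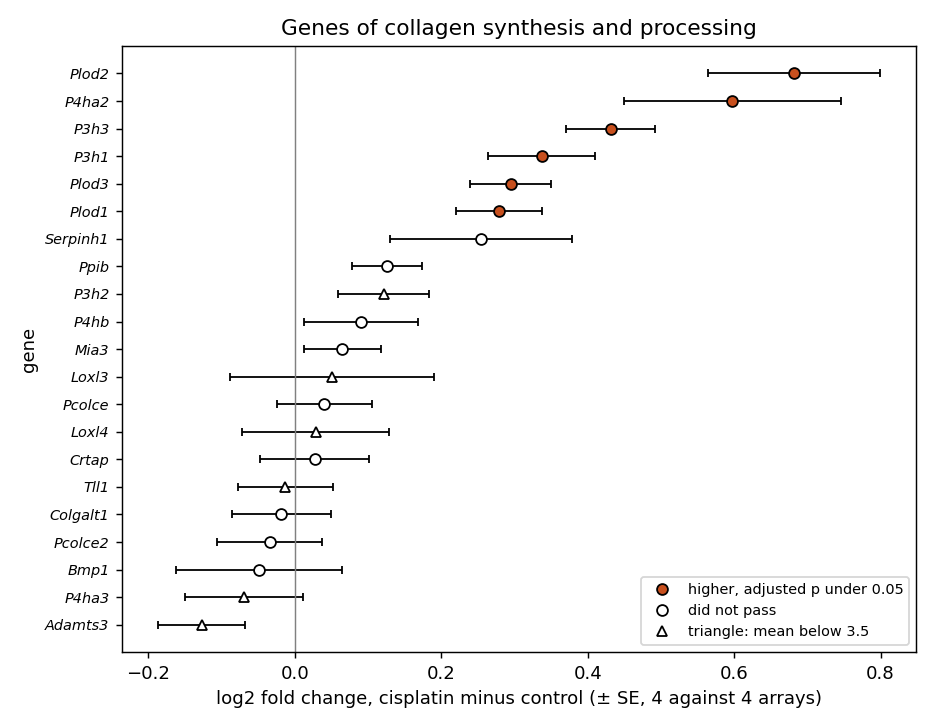
Log2 fold change (cisplatin minus control, ± SE, 4 against 4 arrays) of the 21 measured genes of collagen synthesis and processing. The 6 orange points, from Plod1 at 0.28 to Plod2 at 0.68, passed the test as higher, no gene passed as lower, and triangles mark silent genes.

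Of 28 matrix receptor genes 25 were measured, 3 were higher and 3 lower. That is 12% each, beside 11.6% higher and 7.69% lower over all genes. Sdc4 encodes syndecan-4, a proteoglycan that acts with integrins in binding fibronectin. It was at 8.89 ± 0.22 against 7.65 ± 0.20, or 2.37-fold higher (adjusted p = 0.000123, limma). Itga2b, an integrin gene of platelets, and the silent Itgb4, of epithelia, were at 0.40 ± 0.10 and 0.42 ± 0.10 (adjusted p = 0.0210 and 0.0186). Lower were Itga9 at -0.71 ± 0.09, the laminin receptor gene Itga6 at -0.25 ± 0.06 and the silent collagen receptor gene Itga1 at -0.41 ± 0.10 (adjusted p = 0.000580, 0.0140 and 0.0201).

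TGF-beta signalling is a main inducer of matrix genes. Of its 24 listed genes 22 were measured, 2 were higher and 2 lower. That is 9.09% each, beside 11.6% higher and 7.69% lower over all genes. The co-receptor genes Eng and Tgfbr3 rose by 1.00 ± 0.15 and 0.31 ± 0.06 (adjusted p = 0.00125 and 0.00752, limma). Smad4, the shared signal transducer, and Ltbp1, which holds latent TGF-beta in the matrix, were at -0.25 ± 0.06 and -0.43 ± 0.11 (adjusted p = 0.0200 and 0.0247).

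Of 30 further fibroblast markers 28 were measured, 9 were detected, 2 were higher and none lower. That is 7.14% higher, beside 11.6% higher and 7.69% lower over all genes. Emilin1, an elastic fibre protein gene, was at 0.47 ± 0.08 (adjusted p = 0.00236, limma) and Mfap5, a microfibril protein gene, at 0.38 ± 0.11 (adjusted p = 0.0356). Vim, the vimentin gene, was at 10.78 ± 0.05 against 10.86 ± 0.04 and Serpinf1 at 5.27 ± 0.39 against 4.76 ± 0.40, and neither passed (adjusted p = 0.387 and 0.151). Of 9 measured markers of endothelium and blood 3 were detected, 22.2% were higher and 11.1% lower. The endothelial receptor gene Tek and the macrophage marker Cd68 were higher, at 0.85 ± 0.09 and 0.97 ± 0.15, and the silent endothelial cadherin gene Cdh5 was lower at -0.29 ± 0.07. Tie1, Emcn, Ptprc, Adgre1 and Cdh5 had means below the background probes. The mean over the 9 markers ran from 3.94 to 4.00 on the cisplatin arrays and from 3.84 to 3.88 on the control arrays. Their median change was -0.09, and apart from Tek and Cd68 none was called higher. The part of these markers in the results was not tested.

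The called matrix genes differed in length. In the RefSeq annotation the lower genes Lama1, Lamc1, Fn1 and Tgfbi span 126, 114, 67.8 and 29.8 kb, and the higher genes Thy1, Sparc, Mmp2 and Fbln2 span 5.20, 25.9, 26.1 and 60.1 kb. Long genes were also among those that did not pass, such as Col5a1, Col4a2, Col5a2 and Col4a1 at 153, 136, 129 and 114 kb. A relation to length was not tested.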

How the data were processed

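RNA of 8 samples was read on 1 array each. The authors deposited log2 expression values per probe set, made with RMA per the submitters' processing notes, which also name limma without a version. RNA was labelled from its 3' end, per the labels' protocols. RMA equalizes arrays, so shifts common to all genes are not visible. Of 45141 probe sets, 28898 had 1 gene in the platform annotation, 551 several and 15588 none listed, and 104 were controls. Of 17098 genes, 16937 were found in a RefSeq table.

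The groups were compared with limma 3.58.1 in R 4.3.3 (lmFit and eBayes, group as the only term), Benjamini-Hochberg adjustment over 17098 genes and a threshold of 0.05, with no filter on dim genes; the fit was tested on simulated data. The median SE of a log2 fold change was 0.08, and the number of arrays limits the precision. Lists are described by counts and medians. The members and lists were chosen with earlier results of these data known. All members are named, and of each related list the called genes, at most the 4 with the smallest p in a direction, besides Pou5f1, Nanog, Sox2, Hprt, Xist and the 3 fibroblast markers with the highest mean. Alternatives covered the probe set, dim genes, normalization, centring, the test, the threshold, a replicate term and each array left out. Figures were drawn with matplotlib 3.10.9.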

Additional observations from a re-analysis of the deposited data

Results flagged for a closer look

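In 70 groups of 4 arrays (35 genes in both groups), 3 held an array whose gap to the nearest of the others exceeded Dixon's critical value, which chance gives in about 5% of groups. Lamb1 was lowest on control array 6, at 8.43, and so was Twist1, at 3.49. Lum, silent throughout, was highest on control array 5, at 2.71.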

How the results depend on the processing

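Leaving out 1 array at a time, or both arrays numbered 3 (added once the values were known), gave 2 to 6 higher and 2 to 4 lower matrix genes, where all arrays gave 4 and 4, and a median change of the detected matrix genes between -0.07 and 0.13. The low of 2 higher genes, Mmp2 and Sparc, came without control replicate 3, and that of 2 lower genes without both arrays numbered 3. Centring each array on its median left 2 higher, Mmp2 and Thy1, and an adjusted p under 0.01 left 2, Mmp2 and Sparc. Over all genes centring moved the median change from 0.01 to -0.12 and the share of higher genes among calls from 60.2% to 21.7%; a further quantile normalization gave 47.9%. None of the 8 called matrix genes changed direction under the alternatives run, and Mmp2 and Lama1 passed in each.

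Timp1 passed without dim genes, with the mean of probe sets, with an intensity trend, and without cisplatin replicate 3 or control replicate 4 (adjusted p from 0.0171 to 0.0497, limma), and Loxl1 with the trend and without those same arrays (adjusted p = 0.0328, 0.0154 and 0.0373). Over the alternatives the change of Timp1 ran from 0.08 to 0.24, with an adjusted p of up to 0.365 (limma). Twist2 was called lower after centring (-0.23, adjusted p = 0.0279). Tgfbi lost its call on its most variable probe set (adjusted p = 0.162). Fbln2 lost its call in 5 of the fits that each leave out 1 array (adjusted p from 0.0610 to 0.0728). Detection at the background probes gave 23 detected matrix genes, and a limit of 4 gave 20. Over all alternatives the higher genes of collagen synthesis and processing numbered 3 to 7 and the lower ones 0 to 1, lower matrix receptors 1 to 8, lower TGF-beta signalling genes 0 to 7, and lower basement membrane genes outside the matrix list 1 to 7. The causes were not tested.

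Whether the replicate numbers pair the arrays depended on the genes used, and the labels do not say. Deviations of same-numbered arrays from their group means correlated at 0.20, 0.18, 0.20 and 0.06 over all genes tested, and at 0.33, 0.27, 0.31 and 0.14 over the detected genes. Control array 6 correlated better with another cisplatin array (0.11) than with its own number over all genes, but best with its own number over the detected genes, where the next was 0.13. With the replicate block 6 matrix genes were higher and 4 lower, Loxl1 and Timp1 joining (adjusted p = 0.00532 and 0.0254, limma).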
